A study of Homo sapiens with 24 samples.

Results

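RT112 is a human bladder cancer cell line of the luminal papillary (LumP) subtype. The 2 RT112 libraries transfected with the first ZBED2 siRNA (siZBED2-1) were compared with the 2 RT112 libraries transfected with siControl, chosen by their labels from the 24 libraries of the series. The siControl was the one labelled number 2. All 4 came from RT112 cells grown in RPMI with fetal bovine serum and transfected with a lipid reagent, and differed by label in the siRNA and in the replicate number, which marks the experiment batch. RNA was measured by 3′ RNA-seq, which reads the end of each transcript, so that counts follow transcript number rather than length and levels of different genes were not compared per length. The other 8 RT112 libraries, which carried a second ZBED2 siRNA, a FOXA1 siRNA or both kinds together, entered the fit for the spread between replicates and are not described. The study used the ZBED2 knock-down to ask whether this factor holds back interferon signalling in bladder cancer cells. Nothing beyond the batch number says whether replicates were separate cultures, so what their spread covers is not known. The p-values set each difference against the spread between replicates over the 12 RT112 libraries, and speak for these samples alone.

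ZBED2 is a BED-type zinc finger transcription factor. It is known in keratinocytes as a factor of the undifferentiated basal state, and in pancreatic cancer cells as a repressor that binds interferon-responsive elements in competition with IRF1. The bladder lining is built from basal cells that mature through intermediate cells into umbrella cells, which carry uroplakins at their surface. Luminal bladder cancers keep part of that programme, and basal/squamous cancers express keratinocyte genes.

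The libraries held 4526890 and 5192750 counts (siControl replicates 1 and 2) and 4994041 and 4425404 counts (siZBED2-1 replicates 1 and 2), and all values below follow that order. Levels are in CPM, the counts of a gene scaled to a fixed library total after TMM scaling, and 3 counts, taken as the floor of detection, correspond to 0.55 to 0.66 CPM. Transcripts of the mitochondrial genome took 17.8%, 12.2%, 16.0% and 16.9% of the counts, so the second siControl library stood below the other libraries. All 12 markers chosen for urothelial carcinoma cells were measured in all 4 libraries, among them KRT19 (2741 to 3631 CPM), GATA3 (491 to 663 CPM) and EPCAM (192 to 211 CPM). Of 22 fibroblast, endothelial and leukocyte markers, 14 had no count in the 4 libraries and 3 passed the filter on low counts. Their summed level was 123 and 165 CPM in the siControl libraries and 181 and 194 CPM in the siZBED2-1 libraries. Most of it came from LUM, a matrix proteoglycan, at 112, 157, 151 and 168 CPM, and COL1A1, described with the matrix genes, was the member called.

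The target was lower after its siRNA. ZBED2 (ENSG00000177494, chr3:111592900-111595346 on GRCh38) had 101 and 92 counts under siControl and 12 and 0 counts under siZBED2-1. These were 22.2 and 16.9 CPM against 2.38 and 0 CPM, so the groups did not overlap. The log2 fold change was -3.97 ± 0.93 (SE; adjusted p = 0.00624), a 15.7-fold lower level. The call rested on few counts and was lost without siControl replicate 1 (adjusted p = 0.0636) and without siZBED2-1 replicate 2 (adjusted p = 0.0893). Without siZBED2-1 replicate 1 the change was -9.59, set by the library with 0 counts (adjusted p = 0.00313). ZBED2 was the single called member of the 5 BED zinc finger genes tested, and the rest, ZBED4 and ZBED5 among them, overlapped between the groups. With 1 siRNA, the loss of ZBED2 and any other effect of this siRNA cannot be told apart.

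The siRNA was followed by changes in both directions in nearly equal number. Of 58721 genes listed, 13264 passed the filter on low counts, and 1167 (8.8%) were called at an adjusted p under 0.05 by edgeR's quasi-likelihood test. Of these, 577 (4.35% of genes tested) rose and 590 (4.45%) fell. The called genes that rose had a median log2 fold change of 1.02 and those that fell one of -0.94. At least 2-fold changes were seen in 290 genes that rose and 263 that fell, and at least 4-fold changes in 78 and 48. Over all genes tested the median was 0.002, a value that TMM scaling brings near 0 by its construction. Leaving out 1 of the 4 libraries lowered the number of calls to 630 (without siControl replicate 1), 511 (without siControl replicate 2), 660 (without siZBED2-1 replicate 1) and 527 (without siZBED2-1 replicate 2). In all 4 of these leave-one-out fits 304 of the 1167 genes kept their call and direction. A gene called in every one of them is described below as called without any 1 library, and for a gene listed by name alone that was not the case in general.

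**Figure D1:**
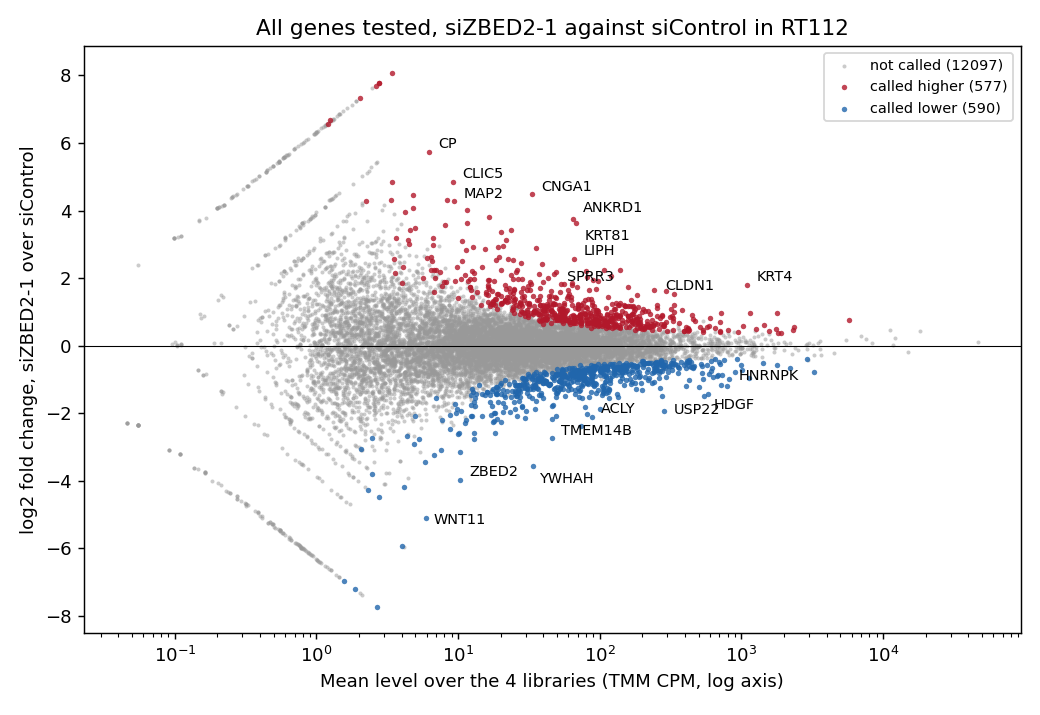
Each point is one of the 13264 genes tested in RT112, with the mean level over the 4 libraries (TMM CPM, log axis) against the log2 fold change of siZBED2-1 over siControl. The 577 genes called higher (red) and 590 called lower (blue) reach abundant genes on both sides of 0, such as KRT4 (mean 1099 CPM) and ENO1 (2220 CPM). MT-RNR2 (46733 CPM) and MT-ND3 (18136 CPM), far to the right, were not called. The diagonal rows of points at the left are genes with few counts.

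The genes with the smallest p among those that rose are given first. ANKRD1, an ankyrin repeat protein induced by YAP, stood at 9.43 and 8.61 CPM in the siControl libraries and at 130.04 and 112 CPM in the siZBED2-1 libraries (log2 fold change 3.75 ± 0.27, adjusted p = 4.07e-09). LIPH, a lipase that makes lysophosphatidic acid, was at 20.2 and 18.1 CPM against 125 and 102 CPM (2.57 ± 0.20, adjusted p = 5.03e-09). For both genes either siZBED2-1 library was far above either siControl library. SCEL encodes sciellin, a protein of the cornified envelope, and went from 50.01 and 46.7 CPM to 232 and 228 CPM (2.25 ± 0.21). SPRR3, a small proline-rich precursor of the same envelope, went from 68.4 and 76.4 CPM to 264 and 223 CPM (1.75 ± 0.18). KRT4, the type II keratin of internal stratified epithelia, was already abundant and went from 512 and 472 CPM to 1714 and 1699 CPM (1.79 ± 0.18). Both libraries of each group lay close together for these 3 genes, far from the other group. CLDN1, a tight junction protein, rose from 109 and 123 CPM to 359 and 378 CPM (1.66 ± 0.16).

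The rest of the 12 genes with the strongest evidence for a rise were KRT81, CLU, GPRC5A, SDCBP2, MAP2 and BASP1. KRT81, a hair keratin with close paralogs among which reads may be split, had 7.90 and 12.3 CPM against 164 and 87.2 CPM (3.62 ± 0.34). CLU, a secreted chaperone, had 26.3 and 28.4 CPM against 98.0 and 102 CPM, and GPRC5A, an orphan receptor induced by retinoic acid, had 175 and 170.0 CPM against 551 and 448 CPM. SDCBP2 (syntenin-2) and BASP1, a membrane-bound signalling protein, rose 3.83-fold and 4.77-fold. MAP2, a microtubule-associated protein best known from neurons, went from near the floor, at 1.54 and 0.37 CPM, to 18.8 and 17.0 CPM (4.27 ± 0.45). In all 12 the groups did not overlap, which the choice required and which held for 1166 of the 1167 called genes. Adjusted p was at most 6.98e-07, and the call held without any 1 library.

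Several of the largest rises started from almost no counts. CNGA1, a subunit of a cyclic nucleotide-gated channel, had 1.54 and 4.03 CPM against 50.7 and 77.3 CPM (4.48 ± 0.55, adjusted p = 4.48e-06). CLIC5, a chloride intracellular channel protein, had 1 and 5 counts against 112 and 61 counts (4.86 ± 0.71). THSD7A, a membrane protein with thrombospondin repeats, had 2 and 6 counts against 103 and 53 counts (4.30 ± 0.69). These 3 genes were called without any 1 library. CP, which encodes the copper-carrying ferroxidase ceruloplasmin, had 2 and 0 counts against 74 and 45 counts. The pooled counts of CP differed 62.2-fold (95% exact interval 16.8 to 520, for counting error alone), but its adjusted p was 0.0461. It was lost in each leave-one-out fit, at 0.107 (without siControl replicate 1), 0.299 (without siControl replicate 2), 0.224 (without siZBED2-1 replicate 1) and 0.16 (without siZBED2-1 replicate 2). Without siControl replicate 1 the log2 change of CP was 8.94 in place of 5.73.

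The genes with the smallest p among those that fell had varied known roles. USP22, the ubiquitin protease of the SAGA coactivator, was at 424 and 479 CPM in the siControl libraries and at 119.7 and 118 CPM in the siZBED2-1 libraries (-1.93 ± 0.15, adjusted p = 5.03e-09). HDGF, a chromatin-bound growth factor, fell from 762 and 852 CPM to 314 and 263 CPM (-1.49 ± 0.13), and CAMK2N1, an inhibitor of calmodulin-dependent kinase II, from 793 and 893 CPM to 316 and 316 CPM (-1.42 ± 0.12). These 3 were abundant transcripts with at least 533 counts in every library. YWHAH encodes the eta isoform of the 14-3-3 phosphoserine-binding proteins and was left at 5.34 and 5.08 CPM from 55.1 and 69.6 CPM (-3.57 ± 0.34, adjusted p = 1.31e-07). Among the 7 genes of the 14-3-3 family 2 were called (28.6%, beside 8.8% of all genes). YWHAZ rose (542 and 520 CPM against 928 and 815 CPM, 0.72 ± 0.12, adjusted p = 0.000231) and the other 5 were not called. TMEM14B, a small membrane protein, fell from 76.8 and 82.4 CPM to 12.9 and 10.8 CPM (-2.74 ± 0.28), and PAFAH1B3, a catalytic subunit of platelet-activating factor acetylhydrolase, from 115 and 132 CPM to 25.9 and 21.9 CPM (-2.37 ± 0.22). YWHAH thus fell 11.9-fold, TMEM14B 6.7-fold and PAFAH1B3 5.16-fold.

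The remaining members of the 12 were UBAC1, ACLY, TIMP3, FGD5-AS1, HNRNPK and RHOBTB3. ACLY, the cytosolic enzyme that makes acetyl-CoA from citrate, had 119 and 165 CPM against 31.3 and 34.7 CPM (-2.11 ± 0.20). HNRNPK, an abundant RNA-binding protein, had 1107 and 1105 CPM against 507 and 466 CPM (-1.18 ± 0.12). TIMP3, the matrix-bound metalloproteinase inhibitor, had 596 and 529 CPM against 242 and 246 CPM (-1.20 ± 0.12). UBAC1, a ubiquitin ligase component, FGD5-AS1, a long noncoding RNA, and RHOBTB3 had log2 fold changes of -1.87, -2.01 and -1.21. All 12 were lower in both siZBED2-1 libraries than in both siControl libraries, which the choice required, and were called without any 1 library.

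Beside YWHAH, several of the largest falls among genes of at least 10 CPM in the higher group were from levels below those of the genes above. WNT11, a secreted Wnt ligand, had 50 and 66 counts under siControl and 3 and 0 counts under siZBED2-1, a 37-fold difference of the pooled counts (95% exact interval 12.3 to 182). Its call (adjusted p = 0.00703) was lost without siZBED2-1 replicate 2 (0.117), and without siZBED2-1 replicate 1 its log2 change was -8.83 in place of -5.11. SOX21, a repressor of the SOX family, had 13.8 and 23.4 CPM against 1.58 and 2.65 CPM (adjusted p = 0.00725). That call was lost without siControl replicate 2 (0.102), siZBED2-1 replicate 1 (0.109) or siZBED2-1 replicate 2 (0.0591). FAM216A had 13.8 and 13.2 CPM against 0.99 and 2.21 CPM (adjusted p = 0.00394, and 0.0821 without siZBED2-1 replicate 1). The groups did not overlap for these genes, which the choice required.

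**Figure D2:**
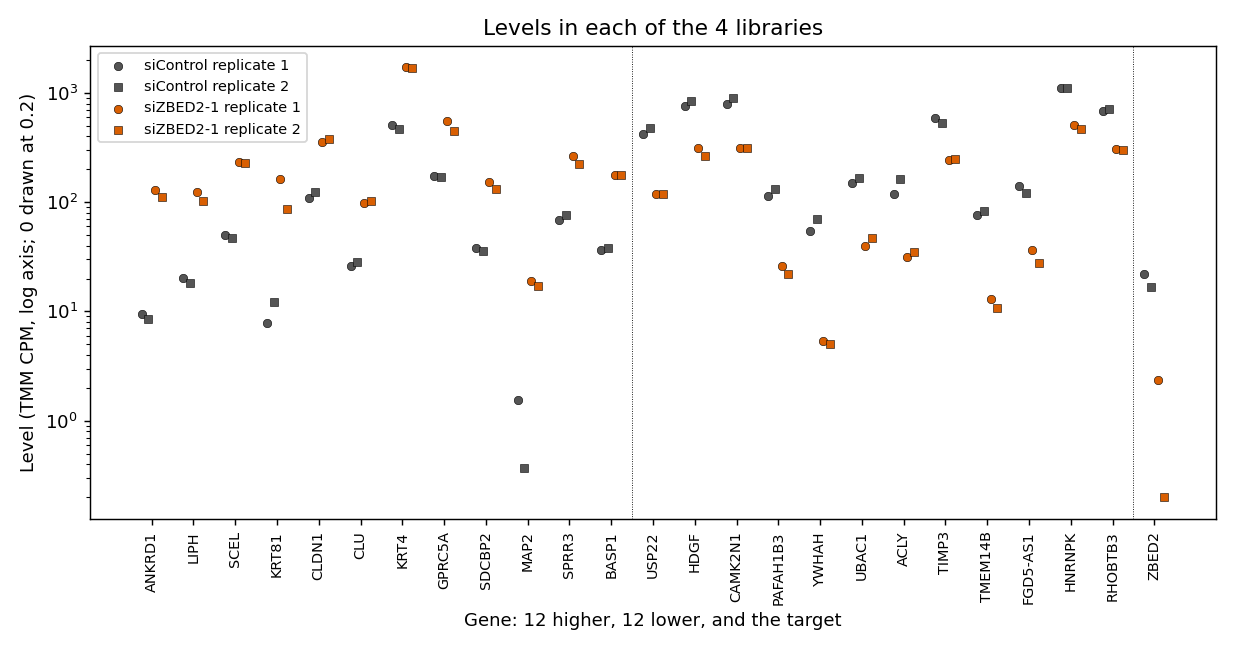
Levels (TMM CPM, log axis, with 0 drawn at 0.2) of the 12 genes called higher and the 12 called lower with the smallest p, and of ZBED2, in the 2 siControl libraries (grey) and the 2 siZBED2-1 libraries (orange). Genes were chosen with groups that did not overlap, so within a gene the grey and orange points form separate pairs. Among them are YWHAH at 55.1 and 69.6 against 5.34 and 5.08 CPM and KRT4 at 512 and 472 against 1714 and 1699 CPM.

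Genes of the cell cycle were lower after siZBED2-1. All 81 mitosis genes tested had a log2 fold change below 0, beside 6593 of all 13264 genes. In 77 both siZBED2-1 libraries were below both siControl libraries, beside 3461 of all genes. Of the 81, 37 (45.7%, beside 4.45% of all genes) fell. None was called higher by edgeR or DESeq2 or had an unadjusted p under 0.05 on that side. The median change of the list was -0.86, beside 0.002 for all genes, and the summed level went from 12664 and 12961 CPM to 7601 and 7119 CPM. Without each of the 4 libraries in turn 13 to 18 members were called lower and the median stayed between -0.92 and -0.80. Among 54 DNA replication genes 12 fell (22.2%, beside 4.45% of all genes) and none was higher by the same 3 counts. The median was -0.58, and 43 were below both siControl libraries, beside 3461 of all 13264 genes. In the leave-one-out fits 2 to 9 replication genes were called, and with the replicate number as a block 19. In bulk RNA, fewer cells in a given phase and less RNA per cell cannot be told apart.

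HMMR, the hyaluronan receptor that also sits on the spindle, went from 112 and 134 CPM to 37.6 and 32.2 CPM (-1.82 ± 0.23, adjusted p = 8.03e-06). CKS1B, a cyclin-dependent kinase subunit, went from 257 and 306 CPM to 128 and 98.5 CPM (-1.31 ± 0.17, adjusted p = 9.84e-06). SMC4, a condensin subunit, went from 879 and 886 CPM to 487.5 and 488.5 CPM (-0.86 ± 0.12), and STMN1 (stathmin), a microtubule-destabilizing protein, from 619 and 723 CPM to 378 and 394 CPM. In each of these 4 the lower group lay wholly below the higher one, and each was called without any 1 library. AURKB, the kinase of the chromosomal passenger complex, fell from 99.8 and 106 CPM to 45.5 and 35.6 CPM (-1.34 ± 0.25, adjusted p = 0.000719), and its leave-one-out adjusted p reached 0.0348. POLA1, the catalytic subunit of the primase-coupled polymerase, fell from 43.9 and 34.99 CPM to 10.3 and 11.3 CPM (-1.87 ± 0.35, adjusted p = 0.000725), and RRM2, a subunit of ribonucleotide reductase, from 317 and 323 CPM to 151 and 148 CPM (-1.10 ± 0.23, adjusted p = 0.00239). POLA1 and RRM2 were the replication genes called without any 1 library.

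Promoters of these genes carry known sequence elements, of which the letters were searched on both strands of RefSeq windows (GRCh38.p14) from 250 bases before to 50 after each gene's start. The cell cycle gene homology region (CHR, letters TTTGAA) is bound by the DREAM and MuvB complexes in mitotic genes. It was found in 44 of 69 mitosis promoters (63.8%), in 21 of the 30 of genes that fell, and in 15.4% of all 27305 promoters. The E2F letters TTTCCCGC or TTTGGCGC were found in 19 of 47 replication promoters (40.4%) and in 2.31% of all promoters. A match is a description of the letters and not of a bound site. The 80 bases before the start of 4 genes that fell are given below with the CHR letters, on either strand, in capitals, followed by HELLS with its 2 E2F matches in capitals. They were picked after their values and match positions were seen, so their like placement is set by the choice.
HMMR: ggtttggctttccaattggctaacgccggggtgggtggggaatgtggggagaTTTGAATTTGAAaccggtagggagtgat
CKS1B: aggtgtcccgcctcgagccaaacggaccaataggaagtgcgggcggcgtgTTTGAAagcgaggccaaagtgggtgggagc
CKS2: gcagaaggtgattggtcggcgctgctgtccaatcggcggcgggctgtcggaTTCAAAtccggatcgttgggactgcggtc
KIF11: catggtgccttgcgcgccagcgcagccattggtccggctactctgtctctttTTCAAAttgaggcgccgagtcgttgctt
HELLS: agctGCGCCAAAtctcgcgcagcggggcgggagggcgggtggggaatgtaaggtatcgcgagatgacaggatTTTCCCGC

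These windows are chr5:163460552-163460631 for HMMR, chr1:154974601-154974680 for CKS1B, chr9:89311115-89311194 for CKS2, chr10:92593050-92593129 for KIF11 and chr10:94545708-94545787 for HELLS, all on the plus strand. In these 4 CHR promoters a match began 28 to 30 bases before the start, while over the 21 promoters of genes that fell the matches began between positions -247 and 36 from the start, and HMMR held a second copy directly after the first. CKS2, the paralog of CKS1B, fell from 78.5 and 69.4 CPM to 32.3 and 32.9 CPM (-1.18 ± 0.31, adjusted p = 0.0136). KIF11, a motor that separates the spindle poles, fell from 71.7 and 66.9 CPM to 33.8 and 32.7 CPM (-1.06 ± 0.34, adjusted p = 0.0494). HELLS, a chromatin remodeller of the replication list, fell from 163 and 159 CPM to 78.4 and 70.4 CPM (-1.11 ± 0.25, adjusted p = 0.00461). For all 3 the groups did not overlap. Adjusted p without 1 library ran from 0.052 to 0.115 for CKS2 and from 0.149 to 0.251 for KIF11, so no leave-one-out fit called them. That of HELLS reached 0.0859 without siZBED2-1 replicate 2.

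Cyclins, kinases and inhibitors that act in G1 were mixed. Of 29 genes tested, 4 fell (CDKN2D, CDK2, CCND3 and TFDP1), a share of 13.8% beside 4.45% of all genes. A further 2 rose (CCND1 and CDKN1A), 6.9% beside 4.35%, and the median was -0.39. CDKN2D, an inhibitor of the CDK4 and CDK6 kinases, went from 33.1 and 55.1 CPM to 10.7 and 14.6 CPM (-1.81 ± 0.33, adjusted p = 0.0007) and was called without any 1 library. CDKN1A (p21) was at 45.2 and 43.8 CPM against 60.6 and 91.6 CPM (0.77 ± 0.24, adjusted p = 0.0463). Without siZBED2-1 replicate 2 its change was 0.45 (adjusted p = 0.504), and it was also lost without siControl replicate 1 (0.173) or siControl replicate 2 (0.243). Among 28 p53 target genes 3 rose (10.7%, beside 4.35% of all genes) and 1 fell (3.57%, beside 4.45%), with a median of 0.13. Without 1 library 1 or 2 were called higher, and the median ran from 0.0048 (without siControl replicate 1) to 0.28 (without siControl replicate 2). GDF15, a stress-induced cytokine, rose from 11.4 and 6.60 CPM to 42.2 and 33.8 CPM (2.09 ± 0.37, adjusted p = 0.000448). Of 21 BCL2 family genes 0 were called by edgeR, beside 8.8% of all genes. Of the 21, 3 had an unadjusted p under 0.05, 1 was called by DESeq2 and 1 with the replicate number as a block. MCL1, an inhibitor of apoptosis, stood at 208, 179, 210 and 210 CPM.

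Several markers of urothelial differentiation rose. Of 25 luminal and umbrella-cell markers, 10 rose and 2 fell, a called share of 48% beside 8.8% of all genes, and the median change was 0.39. CD24, a surface glycoprotein of urothelium, went from 133 and 155 CPM to 499 and 384 CPM (1.62 ± 0.18, adjusted p = 8.84e-07). CYP4B1, a cytochrome P450 of the bladder, went from 5.26 and 7.69 CPM to 38.003 and 39.3 CPM (2.56 ± 0.37, adjusted p = 4.29e-05). Uroplakins form the plaques of the umbrella cell surface. UPK2 rose from 108 and 96.5 CPM to 201 and 198 CPM (0.97 ± 0.15, adjusted p = 0.000129), and UPK1A from 14.9 and 20.5 CPM to 54.0 and 101 CPM (2.12 ± 0.45, adjusted p = 0.00245). UPK1A was lost without siControl replicate 1 (0.0556) or siZBED2-1 replicate 2 (0.115), while CD24, CYP4B1 and UPK2 were called without any 1 library. UPK3B went the other way, at 26.98 and 25.3 CPM against 16.4 and 5.74 CPM (adjusted p = 0.0479), a call lost without siControl replicate 1 (0.177), siControl replicate 2 (0.142) or siZBED2-1 replicate 2 (0.485). Its log2 change was -1.22, and -2.18 without siZBED2-1 replicate 1 and -0.67 without siZBED2-1 replicate 2. FABP4, a fatty acid carrier of luminal cells and a PPARG target, fell from 925 and 1056 CPM to 434 and 459 CPM (-1.15 ± 0.17, adjusted p = 4.66e-05). The list had 4 to 7 members called higher and 1 or 2 called lower in the leave-one-out fits.

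Of 20 luminal transcription factors, RXRA, the partner of PPARG on DNA, was called (5%, beside 8.8% of all genes). With the replicate number as a block 1 was called in each direction. RXRA fell from 263 and 272 CPM to 119.6 and 132 CPM (-1.09 ± 0.16, adjusted p = 3.69e-05) and was called without any 1 library. FOXA1, a pioneer factor of luminal cells, stood at 42.1 and 41.2 CPM against 45.5 and 56.8 CPM (0.29 ± 0.34, adjusted p = 0.708). Its log2 change was 0.45 without siZBED2-1 replicate 1 and 0.13 without siZBED2-1 replicate 2. GATA3 stood at 491 and 517 CPM against 524 and 663 CPM (adjusted p = 0.343). The siZBED2-1 libraries were above the siControl libraries for both genes, but neither passed the test. The median of the list was -0.03.

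Of 31 basal and squamous markers tested, 6 rose (19.4%, beside 4.35% of all genes) and 2 fell (6.45%, beside 4.45%), with a median of 0.46. EGFR, the epidermal growth factor receptor, rose from 80.3 and 71.6 CPM to 179 and 189 CPM (1.28 ± 0.16, adjusted p = 6.11e-06). DSC2, a desmosomal cadherin, rose from 19.1 and 16.5 CPM to 50.3 and 48.6 CPM (1.48 ± 0.28, adjusted p = 0.000842). KRT16, a keratin of activated keratinocytes, fell from 49.8 and 59.0 CPM to 10.1 and 19.7 CPM (-1.88 ± 0.29, adjusted p = 0.000108). SPRR3, EGFR, DSC2 and KRT16 were all called without any 1 library. IVL (involucrin), at 167 and 244 CPM against 108 and 123 CPM, was also called lower (adjusted p = 0.0066). Without siControl replicate 2 its change was -0.55 in place of -0.83 (0.213), and it was lost without siZBED2-1 replicate 1 (0.0984).

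Of the 17 genes of the basal transcription factor network that passed the filter, HMGA2, NR3C1 and STAT3 rose (17.6%, beside 4.35% of all genes). ZBED2, the target, and FOSL2 fell (11.8%, beside 4.45%). HMGA2, an architectural chromatin protein, was at 10.7 and 7.69 CPM against 36.4 and 50.1 CPM (2.23 ± 0.40, adjusted p = 0.000523). NR3C1, the glucocorticoid receptor, was at 73.7 and 81.0 CPM against 148 and 151 CPM (0.95 ± 0.17, adjusted p = 0.000503). Both were called without any 1 library.

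Several targets of YAP and TEAD rose. Of 28 tested, 10 rose (35.7%, beside 4.35% of all genes). By edgeR or DESeq2 0 were called lower, and 0 had an unadjusted p under 0.05 on that side. Above both siControl libraries lay 21, and below both 1, beside 3563 and 3461 of all 13264 genes. The median change was 0.56. YAP and TEAD are the transcriptional arm of the Hippo pathway, which responds to cell contact and tension. Beside ANKRD1, CYR61 (CCN1), a secreted matricellular protein, rose from 6.58 and 11.9 CPM to 42.2 and 42.6 CPM (2.18 ± 0.34, adjusted p = 9.65e-05). AMOTL2, a junctional inhibitor of YAP, rose from 64.7 and 63.6 CPM to 120.1 and 143 CPM (1.03 ± 0.17, adjusted p = 0.000172), and LATS2, the kinase that inactivates YAP, from 15.1 and 15.9 CPM to 60.8 and 36.9 CPM (1.65 ± 0.28, adjusted p = 0.000307). F3 (tissue factor) rose from 65.4 and 46.7 CPM to 134 and 118 CPM (1.17 ± 0.21, adjusted p = 0.000513). These 5 genes were called without any 1 library, and the median of the list lay between 0.56 and 0.71 in the leave-one-out fits.

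**Figure D3:**
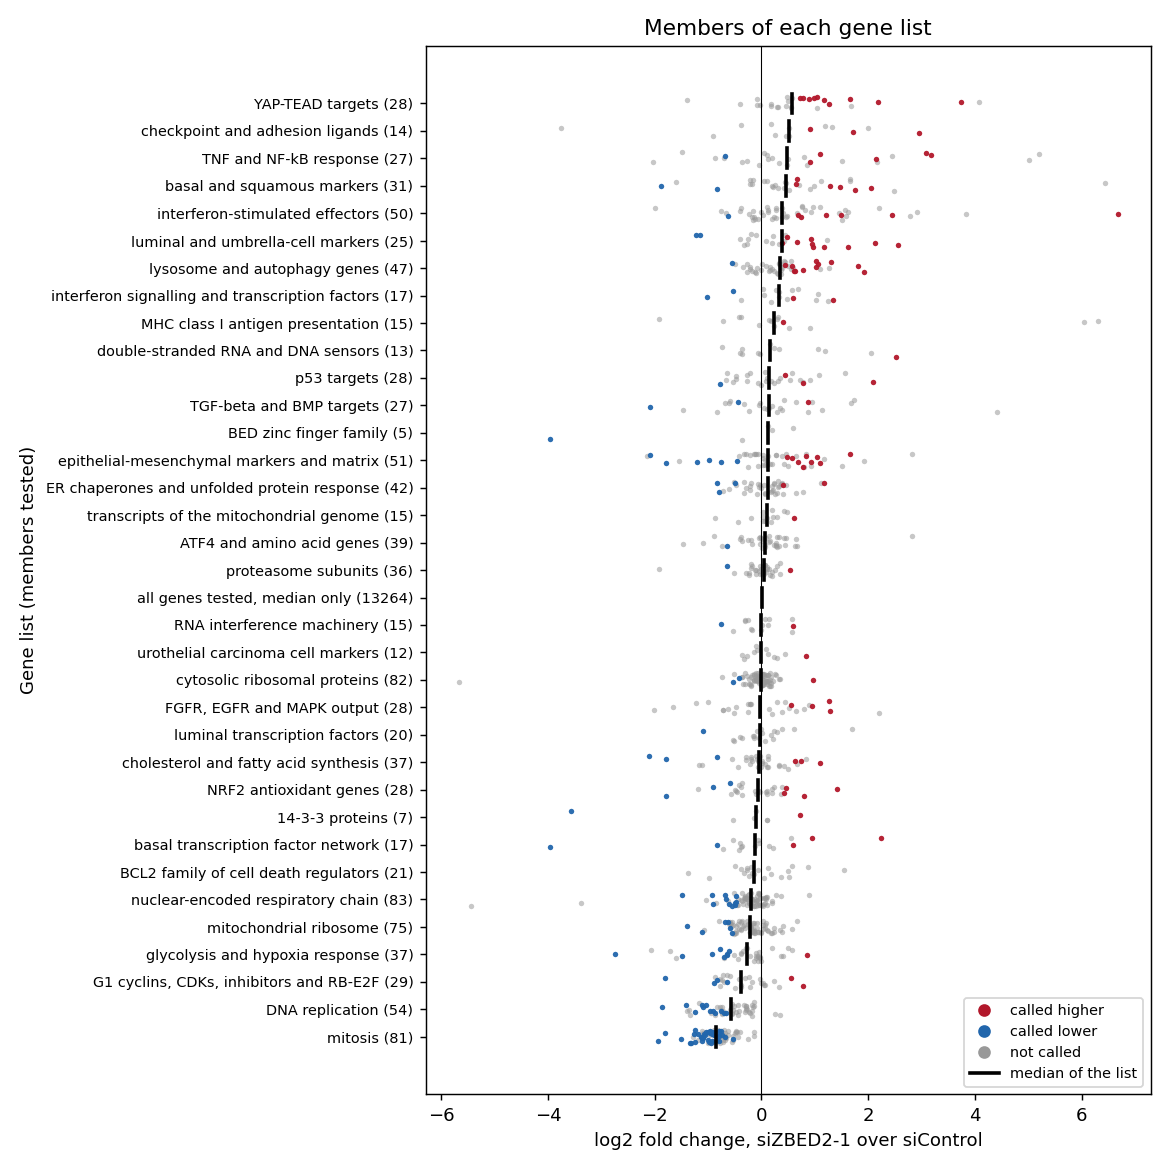
Members of each gene list (rows, with the number tested) by their log2 fold change of siZBED2-1 over siControl, with red points for members called higher, blue for members called lower, grey for the rest and a black bar for the median of the list. The medians run from -0.86 for mitosis to 0.56 for YAP-TEAD targets, with all genes tested at 0.002.

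Interferon genes were the subject of the study's question about ZBED2. Of 50 interferon-stimulated effector genes, 6 (12%, beside 4.35% of all genes) rose, namely GBP3, IFIT2, UBE2L6, GBP1, DTX3L and IFI44L, and SHISA5 fell (2%, beside 4.45%). Members above both siControl libraries numbered 29, with 7 below both and 14 that overlapped. Over all 13264 genes these numbers were 3563, 3461 and 6240. The median change of the list was 0.39. In the leave-one-out fits 2 to 4 members were called higher and the median lay between 0.33 and 0.50. With the replicate number as a block 11 were called higher and 2 lower. IFIT2, an RNA-binding antiviral protein, rose from 8.99 and 8.24 CPM to 51.1 and 42.8 CPM (2.44 ± 0.45, adjusted p = 0.000628). GBP3, a guanylate-binding protein with close paralogs, rose from 58.6 and 47.6 CPM to 119.9 and 126 CPM (1.21 ± 0.20, adjusted p = 0.000181). IFIT2 and GBP3 were the 2 effectors called without any 1 library.

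Of 17 signalling genes and transcription factors of the pathway, STAT2 and STAT3 rose and the receptor chains IFNAR1 and IFNAR2 fell, a called share of 23.5% beside 8.8% of all genes. None of these 4 was called in all 4 leave-one-out fits, and in each leave-one-out fit at most 1 member was called in either direction. STAT2, a subunit of the ISGF3 complex, was at 12.1 and 12.1 CPM against 37.2 and 24.3 CPM (1.35 ± 0.31, adjusted p = 0.00527). Its call was lost without siControl replicate 1 (0.0508), siControl replicate 2 (0.0643) or siZBED2-1 replicate 1 (0.119). IFNAR2 was at 66.5 and 61.7 CPM against 30.5 and 32.5 CPM (-1.03 ± 0.24, adjusted p = 0.00551). That call was lost without siControl replicate 1 (0.0506) or siZBED2-1 replicate 1 (0.0634). IFNAR1 was at 128 and 125 CPM against 88.5 and 85.5 CPM (adjusted p = 0.042), and was lost in all 4 leave-one-out fits (0.138 to 0.208). IRF1 stood at 36.6 and 48.5 CPM against 73.4 and 64.0 CPM (0.69 ± 0.25, adjusted p = 0.0934), with both siZBED2-1 libraries above both siControl libraries. It was called when the 4 libraries alone were fitted, a setting that called 1694 genes in place of 1167. IRF9 had 1.54 and 2.38 CPM against 6.93 and 2.43 CPM (adjusted p = 0.379). CD274, which encodes the checkpoint ligand PD-L1, had 7 and 6 counts against 20 and 12 counts (1.32 ± 0.75, adjusted p = 0.333). The pooled counts of CD274 differed 2.57-fold (95% exact interval 1.31 to 5.34, for counting error alone), and the difference did not pass the test against the spread between replicates.

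The core letters of the interferon-stimulated response element (AAANNGAAA, both strands) were found in 31 of the 39 effector promoters in RefSeq (79.5%), in 4 of the 5 of genes that rose, and in 10.6% of all promoters. IFIH1 (MDA5), a sensor of double-stranded RNA, and IFI44L, an interferon-induced gene, are shown because both were called higher and hold the letters before their start, in capitals.
IFIH1: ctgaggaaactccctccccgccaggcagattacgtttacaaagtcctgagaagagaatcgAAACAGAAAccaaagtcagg
IFI44L: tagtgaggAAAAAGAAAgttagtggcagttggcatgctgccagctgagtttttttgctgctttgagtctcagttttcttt

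The windows are chr2:162318685-162318764 on the minus strand for IFIH1 and chr1:78620368-78620447 on the plus strand for IFI44L. IFIH1 was at 2.85 and 1.10 CPM against 10.5 and 11.9 CPM (2.52 ± 0.64, adjusted p = 0.0113), and was lost without siControl replicate 2 (0.187) or siZBED2-1 replicate 2 (0.0797). IFI44L had no count in either siControl library and 22 and 3 counts in the siZBED2-1 libraries. Against the floor of 3 counts over the group it was at least 8.71-fold higher. Most of that came from 1 library, and without siZBED2-1 replicate 1 the adjusted p of IFI44L was 0.47 in place of 0.0434. It was also lost without siControl replicate 1 (0.179) or siControl replicate 2 (0.235). IFIH1 was the called member of 13 RNA and DNA sensors (7.69%, beside 8.8% of all genes). Of these, EIF2AK2 (PKR) stood at 152, 152, 173 and 166 CPM and MAVS at 181, 137, 149 and 162 CPM. ISG15, a ubiquitin-like protein whose promoter also holds the letters, was not called and its groups overlapped, at 63.8 and 64.9 CPM against 75.6 and 39.5 CPM (adjusted p = 0.899).

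Inflammatory genes of the TNF and NF-kB response gave 5 rises (18.5%, beside 4.35% of all genes) and 1 fall (3.70%, beside 4.45%) among 27 tested. The median was 0.48, and 0.26 to 0.74 without 1 library. BIRC3, an apoptosis inhibitor induced by NF-kB, was at 2.63 and 1.83 CPM against 16.2 and 21.9 CPM (3.09 ± 0.52, adjusted p = 0.000275). IL1B, the cytokine interleukin-1 beta, was at 1.54 and 1.10 CPM against 12.9 and 11.3 CPM (3.18 ± 0.58, adjusted p = 0.000621). NFKBIA, the inhibitor that NF-kB induces on itself, was at 115 and 118 CPM against 223 and 213 CPM (0.90 ± 0.14, adjusted p = 0.000136). These 3 were called without any 1 library, and the list had 3 or 4 members called higher in each leave-one-out fit. Among 14 checkpoint and adhesion ligands 3 rose (21.4%, beside 4.35% of all genes) and 0 were called lower (2 at an unadjusted p under 0.05). VTCN1 (B7-H4) rose from 5.26 and 4.21 CPM to 36.8 and 36.4 CPM (2.95 ± 0.36, adjusted p = 3.67e-06). LGALS9 (galectin-9), with paralogs that may share its reads, rose from 36.9 and 27.1 CPM to 120.1 and 90.3 CPM (1.72 ± 0.27, adjusted p = 0.000129). CD47 rose as well (adjusted p = 0.0073), but its 2 siControl libraries differed, at 50.2 and 89.0 CPM against 139.5 and 124 CPM. The change of CD47 was 0.56 without siControl replicate 1 (0.205), 1.38 without siControl replicate 2, and lost without siZBED2-1 replicate 1 (0.0831). Of 15 genes of MHC class I presentation CALR was called (6.67%, beside 8.8% of all genes), in the main fit and in no leave-one-out fit. Its change was 0.41 ± 0.12 (adjusted p = 0.0284), and 0.35 to 0.46 without 1 library.

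Adhesion and matrix genes moved in both directions, with 9 of 51 rising (17.6%, beside 4.35% of all genes) and 6 falling (11.8%, beside 4.45%) and a median of 0.13. Without 1 library 4 to 7 were called higher and 3 to 6 lower, and the median ran from 0.11 to 0.23. CDH1 (E-cadherin) rose from 215 and 254 CPM to 431 and 406 CPM (0.83 ± 0.16, adjusted p = 0.000743), TIMP2, an inhibitor of metalloproteinases, from 78.5 and 81.7 CPM to 173 and 170.5 CPM (1.10 ± 0.17), and TPM3, a tropomyosin, from 321 and 347 CPM to 607 and 537 CPM. TIMP3 and TAGLN2 were among those that fell, the latter an actin-binding protein that went from 1031 and 1147 CPM to 567 and 527 CPM (-0.99 ± 0.13, adjusted p = 1.65e-05). CLDN1 and these 5 genes were called without any 1 library. COL1A1, a fibroblast collagen, rose from 5.05 and 4.397 CPM to 24.3 and 17.9 CPM (2.16 ± 0.36, adjusted p = 0.000224). LUM, also a fibroblast gene, was not called (adjusted p = 0.517), and no other fibroblast marker passed the filter. Of 28 genes of FGFR, EGFR and MAPK signalling, EGFR, ERBB2, AREG and CCND1 rose (14.3%, beside 4.35% of all genes). Called lower were 0 (2 at an unadjusted p under 0.05, 0 by DESeq2), and the median was -0.02. 1 was called lower with the replicate number as a block, and 0 or 1 in the leave-one-out fits, and the median reached -0.17 without siZBED2-1 replicate 1.

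Several genes of energy metabolism fell. Of 37 glycolysis and hypoxia genes, 8 fell (21.6%, beside 4.45% of all genes), P4HA2 rose (2.7%, beside 4.35%), and 31 had a change below 0. The median was -0.26, and -0.44 to -0.18 without 1 library. TPI1 (triosephosphate isomerase) fell from 788 and 855 CPM to 467 and 395 CPM (-0.93 ± 0.14, adjusted p = 8.11e-05), and PKM (pyruvate kinase) from 1135 and 1137 CPM to 690 and 638 CPM (-0.77 ± 0.12, adjusted p = 9.33e-05). Both were called without any 1 library, and 3 to 5 genes of the list were called lower in each leave-one-out fit. Of 83 nuclear genes of the respiratory chain, a list taken by name that holds 2 pseudogenes, 11 fell (13.3%, beside 4.45% of all genes). On the other side 0 were called higher by edgeR or DESeq2 or had an unadjusted p under 0.05, and the median was -0.20. COX5B, a subunit of cytochrome c oxidase, fell from 396 and 412 CPM to 178 and 111 CPM (-1.48 ± 0.17, adjusted p = 1.34e-06), and ATP5MC1, a subunit of ATP synthase, from 379 and 393 CPM to 226 and 182 CPM (-0.92 ± 0.16, adjusted p = 0.000275). Of 75 mitochondrial ribosome genes 6 fell (8%, beside 4.45% of all genes), among them MRPS10 (-1.12 ± 0.18) and MRPL18 (-1.40 ± 0.23), and 0 were called higher (1 at an unadjusted p under 0.05, 0 by DESeq2). The 2 lists had 2 to 7 and 2 to 4 members called in the leave-one-out fits. Transcripts of the mitochondrial genome itself overlapped between the groups in 12 of 15 cases, beside 6240 of all 13264 genes. MT-ND4L was called higher (adjusted p = 0.0488), a called share of 6.67% beside 8.8% of all genes, with 3 called when the replicate number was a block. The mitochondrial share was lowest in siControl replicate 2, and without that library the adjusted p of MT-ND4L was 0.565 and its change 0.32 in place of 0.62. Without siControl replicate 1 its change was 0.96, and it was lost without siZBED2-1 replicate 1 (0.202) or replicate 2 (0.189).

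Lipid synthesis genes split. Among 37 tested, 3 fell (8.11%, beside 4.45% of all genes), ACLY and ME1 among them. SC5D, TM7SF2 and MSMO1 rose (8.11%, beside 4.35%), and the median was -0.04. ACLY was among the 2 members called without any 1 library. Of 42 chaperone and unfolded protein response genes, CALU and CALR rose (4.76%, beside 4.35% of all genes). HSPA5, ERO1A and SDF2L1 fell (7.14%, beside 4.45%). With the replicate number as a block 5 were called higher and 3 lower. HSPA5 (BiP), the main chaperone of the endoplasmic reticulum, fell from 469 and 433 CPM to 281 and 235 CPM (-0.80 ± 0.14, adjusted p = 0.000342), while CALU (calumenin), a calcium-binding protein of the secretory pathway, rose from 104 and 81.5 CPM to 210.2 and 206 CPM (1.17 ± 0.15, adjusted p = 7.49e-06).

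Several lysosome and autophagy genes rose. Of 47 tested, 11 rose (23.4%, beside 4.35% of all genes) and NPC2 fell (2.13%, beside 4.45%). Above both siControl libraries lay 29, and below both 8, beside 3563 and 3461 of all 13264 genes. The median was 0.35. OPTN (optineurin), an autophagy receptor, rose from 42.6 and 39.02 CPM to 159 and 151 CPM (1.92 ± 0.21, adjusted p = 8.84e-07). RAB7A, the small GTPase of late endosomes, rose from 121 and 110.3 CPM to 228 and 239 CPM (1.02 ± 0.14, adjusted p = 2.32e-05). Both were called without any 1 library. In the leave-one-out fits 2 to 6 genes of the list were called higher, and the median lay between 0.24 and 0.38.

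In the lists of the cytosolic ribosome, the proteasome and ATF4 the called share was below the 8.8% of all genes, at 3.66%, 5.56% and 2.56%. Of 82 ribosomal protein genes 1 rose and 2 fell, and 2 and 4 with the replicate number as a block, and the median was -0.01. RPLP0, a stalk protein whose pseudogene copies may share reads, was at 766 and 790 CPM against 1588 and 1466 CPM (0.97 ± 0.11, adjusted p = 2.51e-06), called without any 1 library. The proteasome list (36 tested) had PSMA1 higher and PSMA3 lower, and the ATF4 list (39 tested) had DDIT4 lower and a further gene with the replicate number as a block. The NRF2 list (28 tested) had 4 higher and 3 lower, a called share of 25%, of which 0 were called in all 4 leave-one-out fits, and the TGF-beta list (27 tested) had TGFBR2 higher and 2 genes lower, PMEPA1 among them, a called share of 11.1%, with 3 higher and 2 lower under the block. Among 15 genes of the RNA interference machinery 1 fell (6.67%, beside 4.45% of all genes) and 1 rose (6.67%, beside 4.35%). DICER1, the nuclease that makes small RNAs, was called lower (163 and 152 CPM against 88.1 and 98.1 CPM, adjusted p = 0.00314). Its change was -0.76, and -0.68 without siZBED2-1 replicate 1, where the call was lost. TNRC6A, an Argonaute partner, was called higher (0.58, adjusted p = 0.0158). Its call was lost without siControl replicate 1 (change 0.47) or siZBED2-1 replicate 2 (change 0.41).

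**Figure D4:**
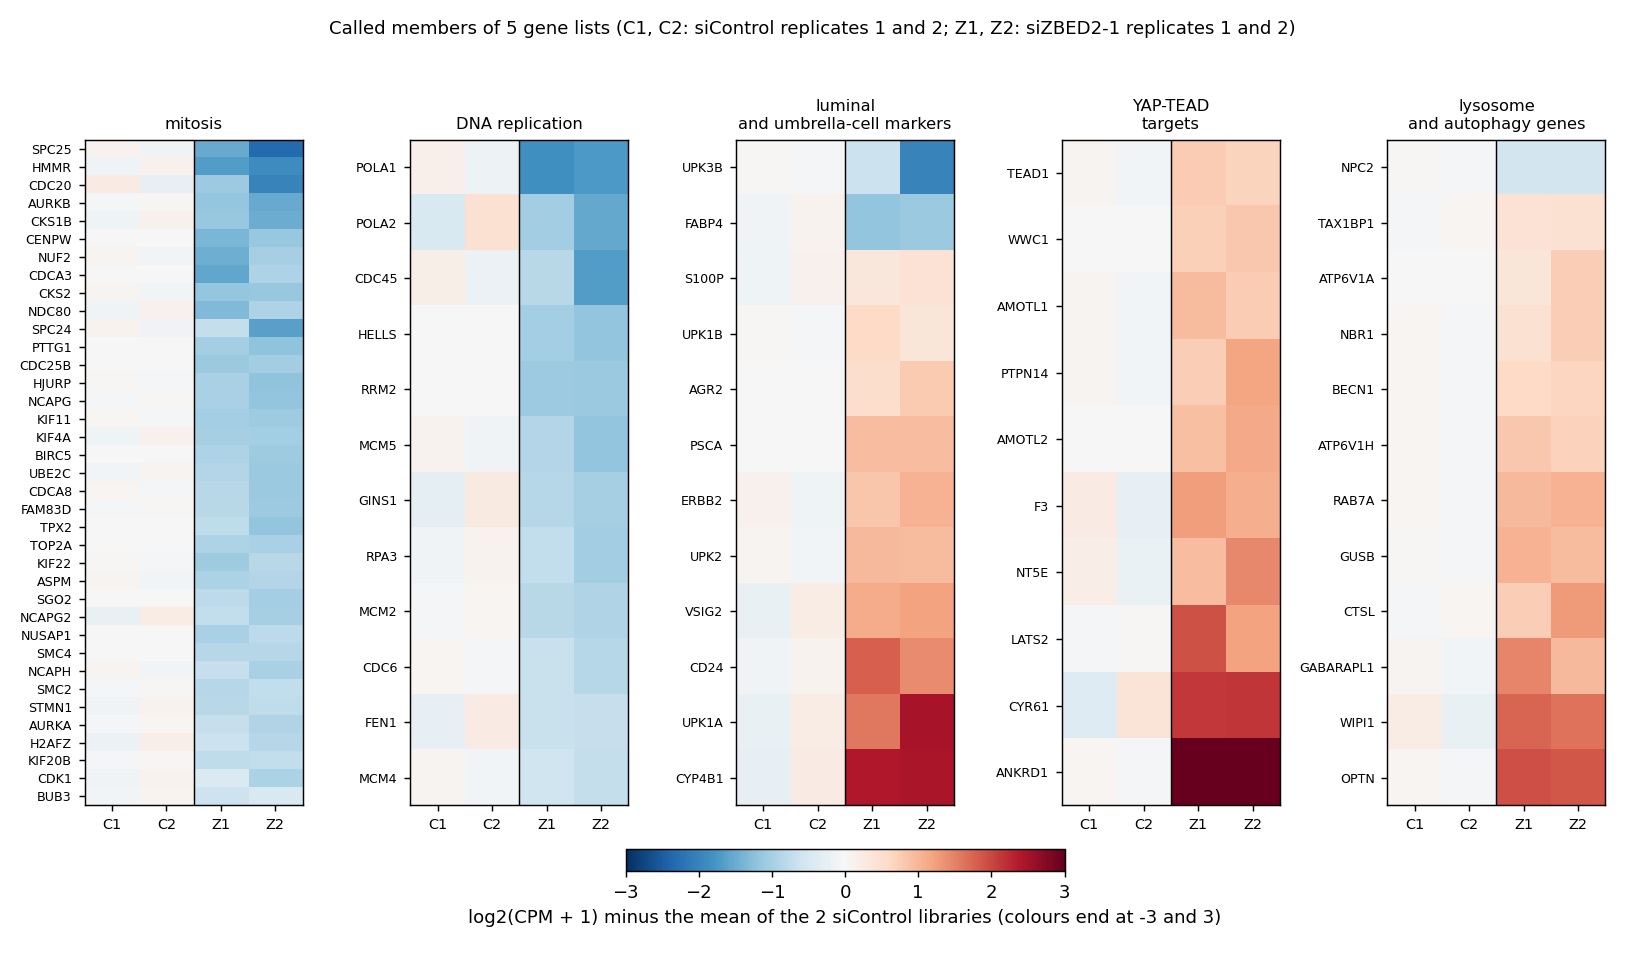
Called members of 5 gene lists as log2(CPM + 1) minus the mean of the 2 siControl libraries, with 1 column per library (C1 and C2 siControl, Z1 and Z2 siZBED2-1) and colours from blue at -3 to red at 3. The siControl columns are near 0, all 37 mitosis and 12 DNA replication genes are blue in both siZBED2-1 columns, and the 10 YAP-TEAD genes are red in both.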

How the data were processed

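The authors deposited a table of raw read counts per gene for 24 libraries, made from single-end 3′ RNA-seq reads (QuantSeq forward kit). Per the file headers and labels, reads were trimmed with TrimGalore 0.6.2 (minimum quality 20, minimum length 10), then aligned and counted with STAR 2.6.1a on hg38 and GENCODE release 29. The study's methods name an older build, and the deposited configuration was followed. A deposited TPM table was not used, because length scaling does not suit 3′ reads.

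From the counts, the 12 RT112 libraries were fitted in edgeR 4.0.16 (R 4.3.3) with TMM scaling, 1 mean for each of the 6 groups and filterByExpr (minimum count 10, minimum total 15). The contrast siZBED2-1 minus siControl was tested by the quasi-likelihood test with Benjamini-Hochberg adjustment over 13264 genes, called under 0.05. Total counts were 4425404 to 5207195 per library, and intervals cover counting error alone. The fit was tested on simulated data. Replicate libraries differed by more than sampling noise (chi-square per gene 11.6 and 7.88) and were counted separately.

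Gene lists, and the rule for the genes named (ZBED2 and study genes, the 12 called genes with the smallest p and the 8 with the largest change among those of at least 10 CPM in the higher group, in each direction and with groups that did not overlap, and up to 4 called members per list and direction, or the 2 most abundant where fewer than 2 were called), were chosen with earlier results of these data known. CKS2, KIF11, IFI44L, F3, AURKB, DTX3L, EPCAM and ISG15 were named after their values were seen. Some genes that the rule selects are not reported here. Gene coordinates and promoters came from RefSeq (GRCh38.p14) by symbol. The first of 35116 promoter rows per symbol was used. Replicate numbers mark the experiment batch, so they pair the libraries by label, although the deviations of replicate 1 in the 2 groups were nearly uncorrelated (r = 0.0126). Alternatives were RLE scaling, total counts, other filters, DESeq2 1.42.0, the 4 libraries alone, the replicate block, and leaving out each library.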

Additional observations from a re-analysis of the deposited data

How the results depend on the processing

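The count of 1167 called genes was 1174 with RLE size factors, 1118 with total counts alone, 1337 with no filter on low counts, 1253 among genes of at least 10 CPM and 1308 with DESeq2, which gave no adjusted p to 1800 genes. It was 1694 when the 4 libraries alone were fitted, of which 1149 were among the 1167, and 1495 with the replicate block, which held all 1167. Leaving out 1 library gave 511 to 660 calls, and the share called higher, 49.4% in all, was 57.5% without siZBED2-1 replicate 2. Scaling by total counts alone gave a share of 46.4%, and the median of all genes stayed between -0.01 and 0.02. ZBED2 stayed below siControl in every fit run, with log2 changes of -9.59 to -3.02 without 1 library, and had too low a mean for the fit at 10 CPM or more. Of the 145 genes named by the rule and called, 75 were called under every one of the 11 alternatives that gave them an adjusted p. Genes of a low mean were not in the fit at 10 CPM or more. The block turned 2 uncalled genes into called ones, KRT7 (-0.32, adjusted p = 0.0474) and MT-ND3 (0.45, adjusted p = 0.0312), and changed no other call among the named genes. Of the genes named by the rule and called, DESeq2 did not call CP, C15orf48 or MT-ND4L. It called 34 mitosis genes lower, beside 37 with edgeR. List medians moved by at most 0.00886 when genes with no count in a group were set at their bound. With 2 libraries a group, the spread between replicates left the differences of CD274 (adjusted p = 0.333) and IRF9 (adjusted p = 0.379) uncalled.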
